A study of Mus musculus with 16 samples.

Results

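The mRNAs of the core spliceosome were measured in the hippocampus of 16 mice. Genes were taken by symbol, as those whose names begin with Snrnp, Snrp, Sf3, U2af, Prpf, Lsm or Cwc. After 2 genes with "-ps" names were left out, 64 of the 54532 genes in the table fitted this rule. A low-count filter over the 4 groups kept 61 of them among 17555 genes in all. The other 3, U2af1l4, Lsmem1 and Lsmem2, had too few counts and are not described further. One gene that was kept, Snrpert, is annotated as a processed pseudogene, and only its name ties it to the rest.

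The 4 groups held 4 mice each. They were wild type mice (WT), WT mice given nicotinamide riboside (WT + NR), hTau.P301S mice, and hTau.P301S mice given NR (hTau.P301S + NR). NR is a precursor of NAD+, given at 6 mM in the drinking water, and the other mice had plain water. According to the labels the treatment lasted 3 months, from 12 months of age to 15 months. The transgene is human tau carrying P301S, driven by Thy1 regulatory sequence, which is active in neurons. Reads of Thy1 itself were higher in both transgenic groups. They ran from 804 to 1639.9 CPM (counts scaled to library size) in hTau.P301S and from 667 to 845 CPM in hTau.P301S + NR, against 462 to 633 CPM in WT and 424 to 579.6 CPM in WT + NR, with no overlap between genotypes. All 5 markers of hippocampal neurons were kept by the filter, with a summed level of 364 to 848 CPM over the 16 mice.

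The spliceosome removes introns from pre-mRNA. It is assembled from small nuclear ribonucleoproteins (snRNPs), each a short nuclear RNA bound by proteins. The Sm proteins form a ring on the U1, U2, U4 and U5 RNAs, and the related Lsm proteins form one on U6 RNA, with Lsm1 in place of Lsm8 in a cytoplasmic ring that acts in mRNA decay. U1 recognises the start of an intron, U2 its branch point, and U5 holds the exons to be joined. The genes were compared as 16 Sm and Lsm ring genes (8 Sm genes, and Lsm1 to Lsm8) and 18 genes specific to U1, U2 or U5. The remaining 27 belong to smaller classes that include other Lsm proteins, U1-associated and U4/U6 proteins, the U2AF factor, the U11/U12 snRNP of minor introns, and proteins that join later.

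Upstream sequences from RefSeq (GRCm38.p6) were matched by symbol to 49 of the 61 genes, and the letters they hold were counted by class. CCGGAAG, recognised by ETS factors, was present on either strand within 250 bases upstream of 9 of 15 genes specific to U1, U2 or U5. The same letters were found in 2 of 12 ring genes (16.7%) and in 7.83% of 27025 genes in the table. CCAAT was present in 6 of 12 ring genes and in 3 of 15 of the other set, against 37.5% of all genes. GGGCGG was present in 7 of 12 ring genes (58.3%) and in 10 of 15 of the others (66.7%), against 35.4% of all genes. TATAAA was present in 1 of 12 and 2 of 15, against 14.3% of all genes. Some genes had several starts, and a gene was counted where any of its stretches held the letters. Different motifs overlapped in 1 of 60 promoters. The background of 27025 genes was not limited to genes kept by the low-count filter, as the 49 were, so the shares are not matched for expression. These are counts of letters, and no binding was measured.

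The 250 bases before the start are given for 3 genes whose values are described later and whose upstream stretch overlaps no annotated exon. Snrnp70 was the U1 gene with the largest difference between the genotypes by size. Lsm11 and Prpf19 had values below 0 for NR in transgenic mice, at an unadjusted p of 0.0816 and 0.0503 with all mice, and for Lsm11 the groups overlapped. Each is written in the direction of the gene, with the motifs found on either strand in capitals. They lie at chr7:45395743-45395992 (minus strand), chr11:45944936-45945185 (minus strand) and chr19:10894981-10895230 (plus strand). Another listed start of Prpf19, with its stretch at chr19:10898395-10898644, held CCAAT but no CCGGAAG and is not printed.
Snrnp70: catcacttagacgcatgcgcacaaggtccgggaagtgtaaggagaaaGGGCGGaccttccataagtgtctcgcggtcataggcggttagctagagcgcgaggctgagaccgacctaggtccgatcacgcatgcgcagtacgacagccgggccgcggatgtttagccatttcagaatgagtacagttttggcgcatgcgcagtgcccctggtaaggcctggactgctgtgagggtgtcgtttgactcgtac
Lsm11: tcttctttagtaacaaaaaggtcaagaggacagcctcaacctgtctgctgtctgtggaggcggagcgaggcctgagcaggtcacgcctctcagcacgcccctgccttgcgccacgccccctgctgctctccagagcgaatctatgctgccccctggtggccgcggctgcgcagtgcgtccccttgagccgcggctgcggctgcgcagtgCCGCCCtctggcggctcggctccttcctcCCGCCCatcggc
Prpf19: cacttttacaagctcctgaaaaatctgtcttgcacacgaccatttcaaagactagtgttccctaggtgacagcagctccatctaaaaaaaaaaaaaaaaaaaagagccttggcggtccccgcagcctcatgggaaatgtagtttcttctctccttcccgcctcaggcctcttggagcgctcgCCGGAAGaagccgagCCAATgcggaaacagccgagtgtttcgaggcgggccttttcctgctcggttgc

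In WT mice the levels of the 61 genes, as CPM per kilobase of the deposited gene length, ran from 1.92 ± 0.598 for Snrnp48 to 157 ± 13 for Snrpn (SD, n = 4). Snrpn encodes SmN, the form of SmB made in neurons, and its relative Snrpb was at 28.9 ± 4.37 CPM per kilobase. The coding sequences of both genes are alike and Snrpn shares exons with Snurf, so the division of reads among them is uncertain. The second highest gene was Sf3b2, a subunit of the U2 complex SF3B, at 71.1 ± 5.11 CPM per kilobase. From Lsm4 at 36.9 ± 11.4 CPM per kilobase downwards, most neighbours in the order lay closer than 1 SD of the higher one. By class, the median level per kilobase was 19.4 for the Sm ring, 5.13 for the Lsm ring, 15.7 for U1, 11.3 for U2 and 17.7 for U5 specific genes.

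Total counts per mouse ran from 16490261 to 21915362. One mouse, hTau.P301S replicate 1, stood apart from the other 15. Mitochondrial transcripts took 14.4% of its counts against 4.48% to 7.07% elsewhere, and 19467 genes were detected in it against at least 22199. Summed markers of microglia (6 of 6 kept) were at 1649 CPM against 241 to 494 CPM, those of neurons (7 of 7) at 3506 CPM against 4607 to 10741 CPM, and those of oligodendrocytes (5 of 5) at 9174 CPM against 2400.3 to 7824 CPM. Astrocyte markers (5 of 5) were at 2361 CPM, within the range of the others. A sum need not hold for each marker. Between all hTau.P301S and WT mice, 5 microglial markers were higher and 1 lower, and 5 neuronal markers were higher and 2 lower. Markers of neighbouring tissue varied inside every group. Choroid plexus markers (5 of 5) ran from 19.1 CPM in that mouse to 9804 CPM in a WT + NR mouse. Striatal markers (4 of 4) ran to 938 CPM in WT but only to 111 CPM in hTau.P301S mice. The part these marker levels have in the results was not tested, and most results resting on replicate 1 are given with and without it. In whole tissue, fewer cells of a type and less RNA per cell cannot be told apart.

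**Figure D1:**
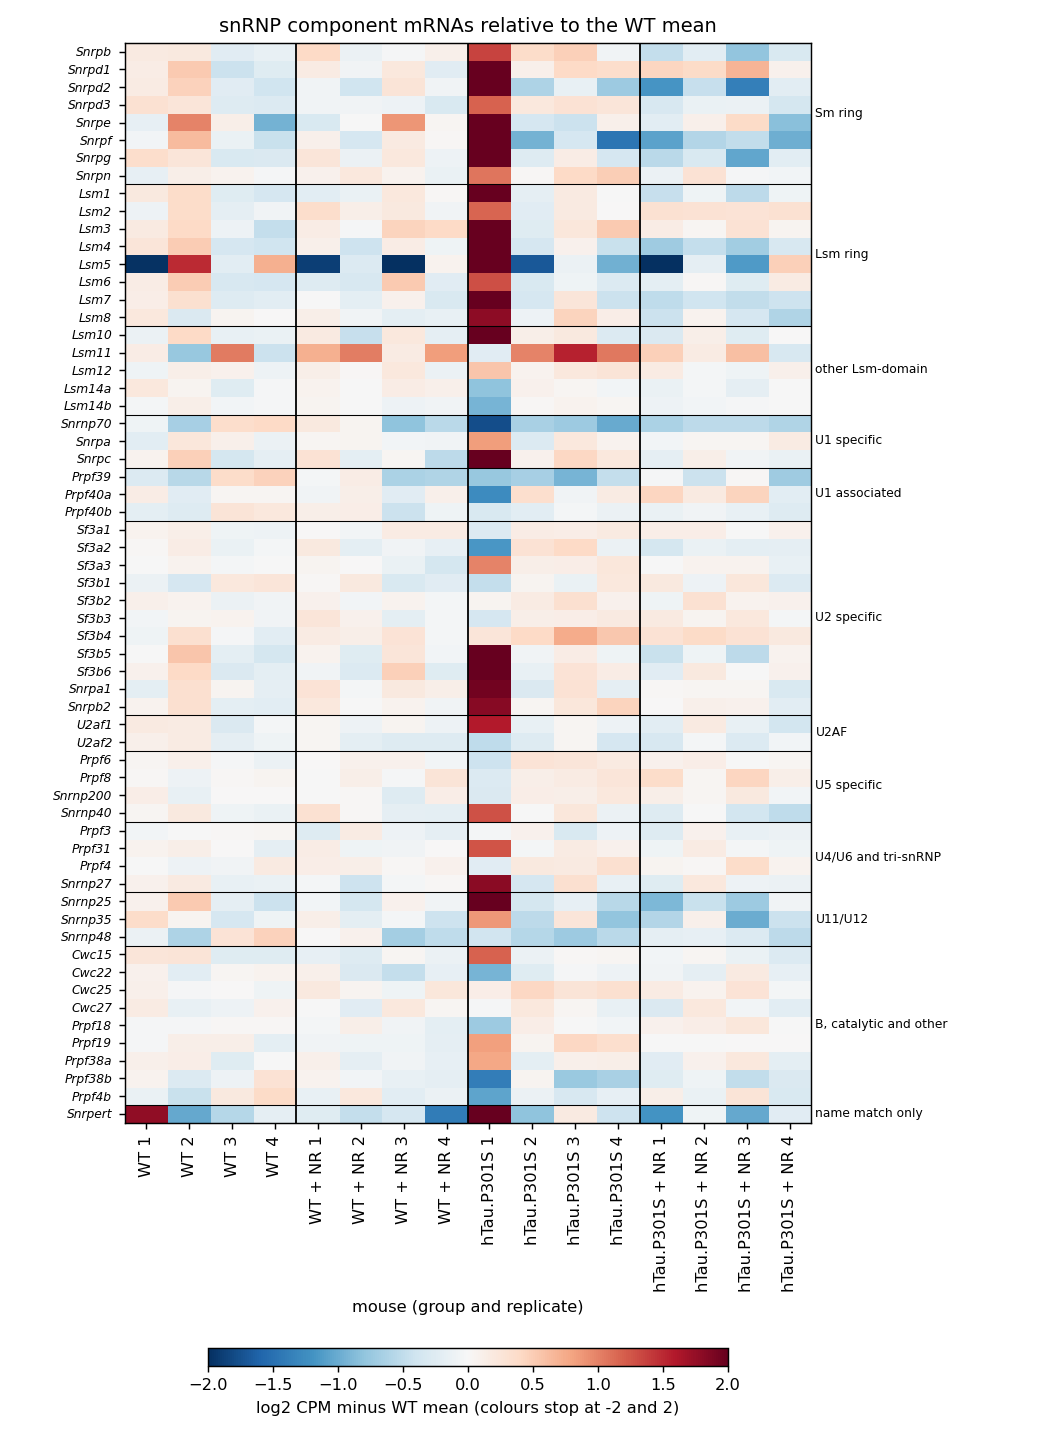
Log2 CPM of the 61 genes (rows, by class) in each of the 16 mice (columns, by group), as the difference from the WT mean of that gene, with colours that stop at -2 and 2. The column of hTau.P301S replicate 1 is red for all 16 Sm and Lsm ring genes and mixed for the other classes.

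All 16 ring genes had their highest level of the 16 mice in hTau.P301S replicate 1. Over all genes 31.8% had their highest level in that mouse and 35.1% their lowest. Snrpd2, an Sm core protein, was at 506 CPM in this mouse and at 34, 47.4 and 31.6 CPM in the other hTau.P301S mice, while WT mice had 58.7, 72.4, 44.7 and 39.9 CPM. Lsm7 was at 213 CPM in it and at 18.1, 27.2 and 17.1 CPM in the rest of its group. Relative to the median of the other 15 mice, the ring genes were higher by a median of 2.34 on the log2 scale, from 0.99 for Lsm2 to 3.85 for Lsm5. Lsm5 had 0.134 to 4.71 CPM in the other mice, so its fold is uncertain.

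The genes specific to U1, U2 and U5 did not move together in that mouse. It held the highest level of 8 of these 18 genes and the lowest of another 8, with a median log2 difference of -0.031. The high ones included genes of SF3B and U1. Sf3b5, a small protein of SF3B, was higher by 3.15, Sf3b6 by 2.31 and the U1 protein gene Snrpc by 2.09 on the log2 scale. The lowest were Snrnp70, whose protein binds U1 RNA, at -1.24, and Sf3a2, of the U2 complex SF3A, at -1.04. The log2 difference was -0.39 for Prpf8, the scaffold of U5, -0.34 for the helicase gene Snrnp200 and -0.50 for Sf3b1, the largest SF3B subunit.

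Gene length moved with these differences. Across the 61 genes the log2 difference of hTau.P301S replicate 1 had a Pearson r of -0.71 and a Spearman rho of -0.72 with the logarithm of gene length, and over all 17555 genes r was -0.40. The points share 1 library, and genes are not independent replicates. In the other 15 mice the same r over the 61 genes lay between -0.51 and 0.58. The ring genes had a median length of 2068 bases, and the genes specific to U1, U2 and U5 one of 3850.0 bases.

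**Figure D2:**
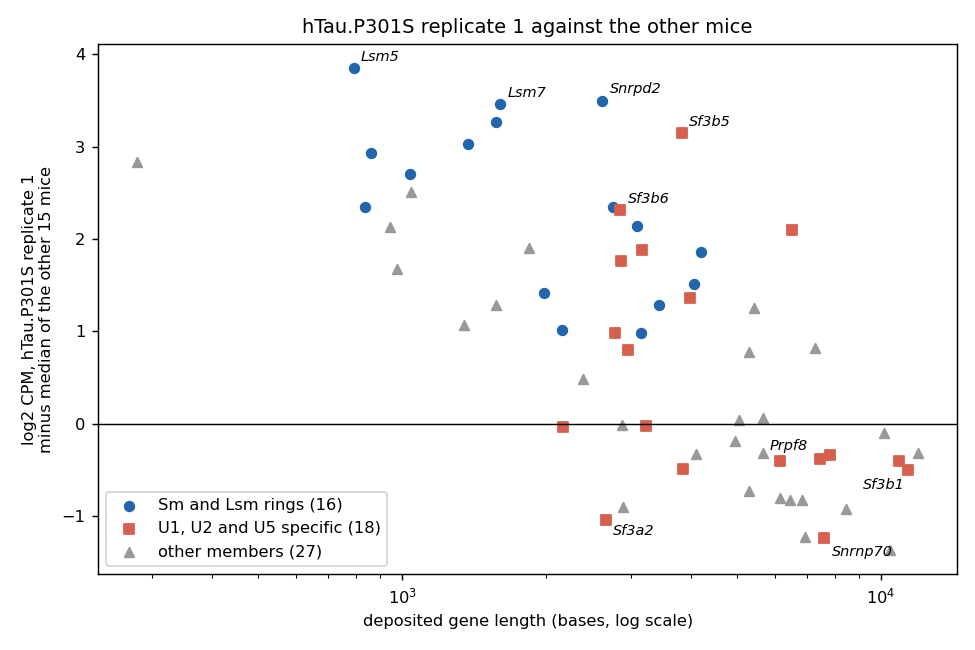
Log2 CPM in hTau.P301S replicate 1 minus the median of the other 15 mice, against deposited gene length in bases on a log axis, with 1 point for each of the 61 genes. The 16 Sm and Lsm ring genes all lie above 0, and the long genes Snrnp70 and Sf3b1 lie below it.

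The first comparison, of hTau.P301S with WT mice, asks how these mRNAs differ with the tau transgene. A gene was called where edgeR's quasi-likelihood test gave it an adjusted p below 0.05 together with a log2 fold change beyond 0.5 in either direction. None of the 61 was called, and 0.00570% of all genes were. DESeq2 on the same 8 mice called none of the 61 either. At an unadjusted p under 0.05, 1 of the 61 genes was higher and 3 were lower, against a background of 3.42% and 4.37% of all genes. Log2 fold changes of the ring genes were above 0 in 16 of 16, with a median of 0.90 against 0.011 over all genes. Once a length trend was removed, 15 of 16 ring genes were above 0, with a smaller median of 0.52. Of the genes specific to U1, U2 and U5, 16 of 18 then were, with a median of 0.25. Leaving out hTau.P301S replicate 1 instead gave 6 ring genes above and 10 below 0, with a median of -0.095 against -0.034. The genes specific to U1, U2 and U5 were above 0 in 15 of 18, with a median of 0.21, and in 14 of 18 without replicate 1, with a median of 0.15. Without that mouse none of the 61 was called, against 0.0671% of all genes. There were then 3 higher and 4 lower genes at an unadjusted p under 0.05, beside 5.17% and 6.65% of all genes.

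Of the Sm genes, Snrpd2 had the largest log2 fold change, 1.53 ± 0.90 (SE), with an adjusted p of 0.583 in edgeR, and without replicate 1 the value was -0.52 ± 0.24. Snrpg, another small core protein, went from 1.45 ± 0.77 to -0.16 ± 0.22, and Snrpe from 1.27 ± 0.84 to -0.37 ± 0.41. Values that kept their sign belonged to Snrpd1 (1.19 ± 0.56, then 0.24 ± 0.23), Snrpb (0.62 ± 0.30, then 0.26 ± 0.17), Snrpd3 (0.53 ± 0.28, then 0.23 ± 0.17) and Snrpn (0.55 ± 0.25, then 0.31 ± 0.16).

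Snrpf was at 9.37, 15.1, 8.81 and 7.09 CPM in WT mice and at 59.1, 4.98, 7.63 and 3.44 CPM in hTau.P301S mice. Replicate 1 was far above WT, while replicate 3 lay within the WT range and the other two lay below it. The log2 fold change was 0.90 ± 0.85 with all mice and -0.92 ± 0.35 without replicate 1, the latter at an unadjusted p of 0.0282 and an adjusted p of 0.394 in edgeR. Exons of Snrpf overlap Ccdc38 on the other strand.

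**Figure D3:**
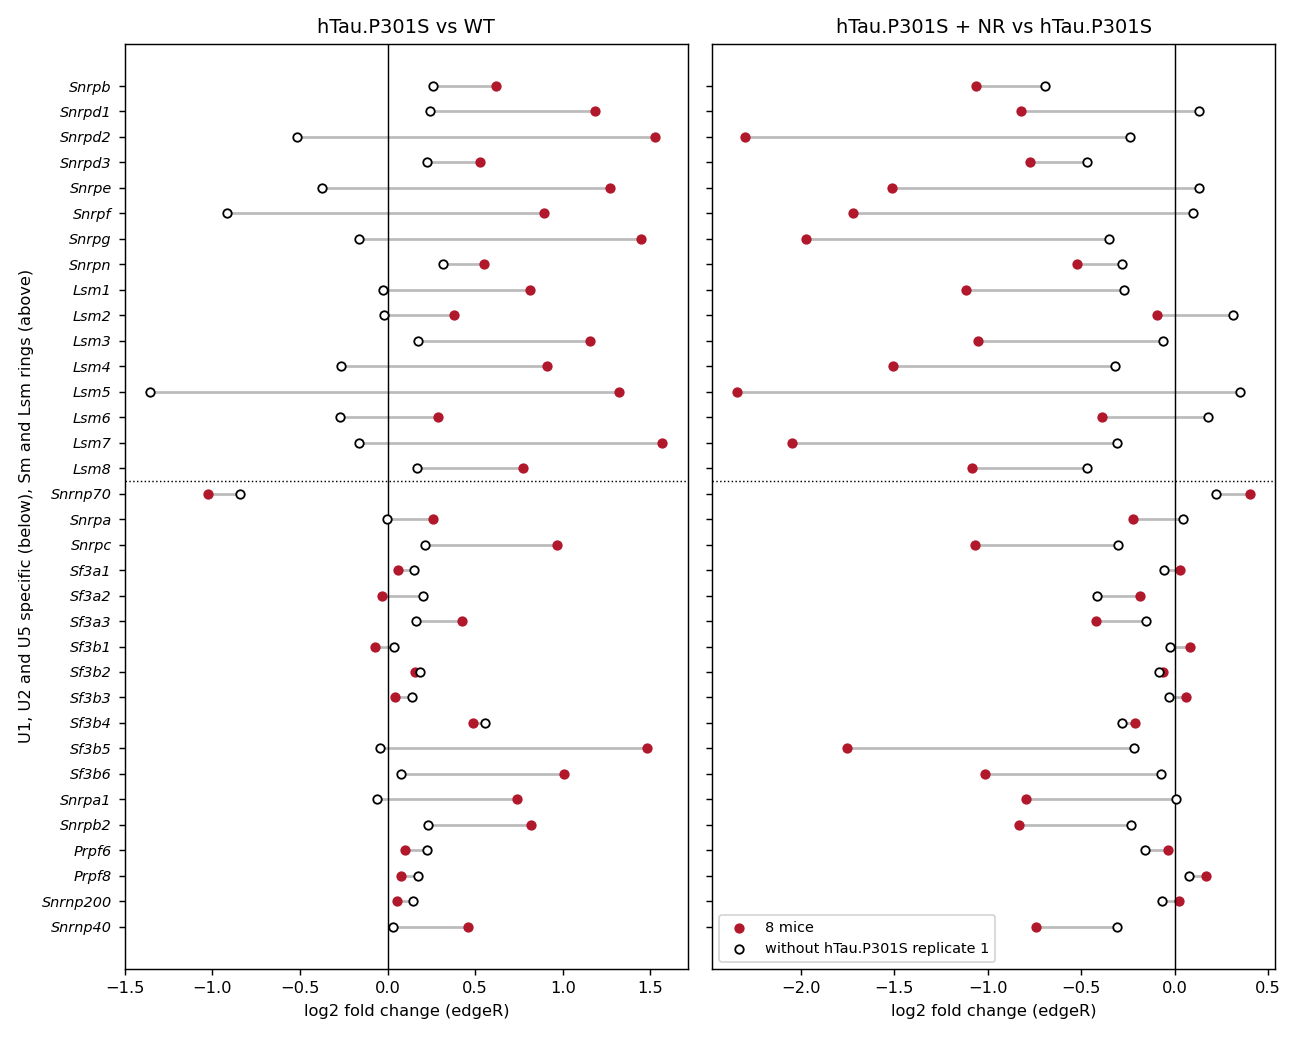
Log2 fold changes from edgeR for the 16 Sm and Lsm ring genes and the 18 genes specific to U1, U2 or U5, for the transgene and for NR in transgenic mice, with all 8 mice (filled) and without hTau.P301S replicate 1 (open). For the transgene, Snrpd2 moves from 1.53 to -0.52 and Snrnp70 from -1.03 to -0.84.

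Outside the rings, 4 genes had an unadjusted p under 0.05 with replicate 1 in the fit and also without it. Of these, Snrnp48 and Sf3b4 are named after their values were seen. Snrnp70, the 70K protein gene of U1, was at 162, 109, 218 and 226 CPM in WT mice and at 50.1, 110.1, 104 and 85.7 CPM in hTau.P301S mice. Only WT replicate 2 lay within the range of the transgenic mice. The log2 fold change was -1.03 ± 0.32 with an unadjusted p of 0.0102 and an adjusted p of 0.583 in edgeR, and -0.84 ± 0.25 without replicate 1 (adjusted p = 0.337). DESeq2 fitted over all 4 groups gave an adjusted p of 0.0225, the only alternative that called any of the 61 genes here.

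Prpf39, a U1-associated factor, was at 29.6, 24.4, 46.6 and 49.3 CPM in WT mice and at 21.3, 22.6, 18.9 and 25.9 CPM in hTau.P301S mice. The groups overlapped through WT replicate 2. Its log2 fold change was -0.75 ± 0.26 (adjusted p = 0.583 in edgeR) and -0.74 ± 0.26 without replicate 1. Snrnp48, a protein gene of the U11/U12 snRNP, was at 17.2, 12.1, 22.6 and 25.9 CPM against 14.4, 12.6, 11.3 and 12.8 CPM. Here too WT replicate 2 lay among the transgenic mice, and the log2 fold change was -0.60 ± 0.26, or -0.67 ± 0.25 without replicate 1.

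Sf3b4, an SF3B subunit, went the other way. Its levels were 40.8, 53.8, 42.4 and 37.3 CPM in WT and 50.9, 57.1, 72.7 and 63 CPM in hTau.P301S mice. The overlap came from replicate 1 of the transgenic group alone, and the log2 fold change of 0.49 ± 0.19 was 0.56 ± 0.16 without it (adjusted p = 0.324 in edgeR). Exons of Prpf39 and Sf3b4 overlap genes on the other strand, and the strand used in counting is not given in the sources used here.

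Some U1 and U11/U12 genes also followed individual mice without the transgene. WT replicates 3 and 4 and WT + NR replicates 1 and 2 held the 4 highest levels of Snrnp70, Snrnp48 and the U1-associated Prpf40b, that is, of 3 of the 61 genes (4.92%), and of 1.25% of all genes. These 4 mice are the highest for Snrnp70 itself, which therefore counts by construction, so the shares are not a test. Other genes of these classes did not share this order. Snrpc had WT replicate 3 and WT + NR replicate 2 among its 4 lowest levels, and Snrnp25 had none of these 4 mice among its 4 highest. In those 4 mice the r between the deviation of the 61 genes and their length was 0.43, 0.22, 0.15 and 0.50, and it was -0.22 and -0.51 in WT replicates 1 and 2. The r was 0.58 and 0.52 in hTau.P301S + NR replicates 1 and 3, and 0.43 in hTau.P301S replicate 2, all mice with less Snrnp70. Whether gene length bears on the Snrnp70 levels was not tested. WT + NR mice had 197, 179, 97.8 and 118 CPM of Snrnp70, again a spread over individuals. The part of this variation in the difference between genotypes was not tested.

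**Figure D4:**
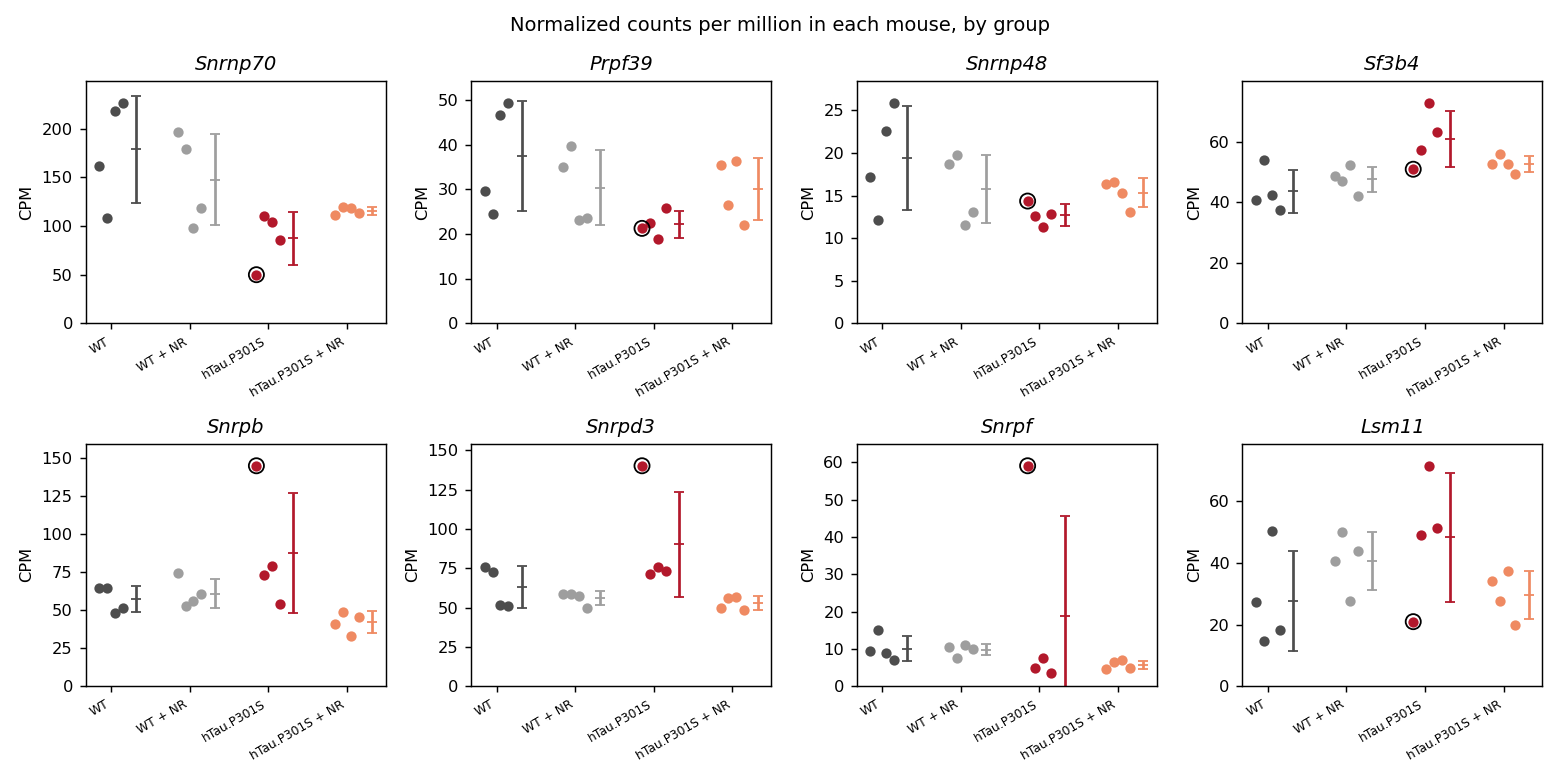
CPM of 8 genes in each mouse by group, with the mean and SD beside the points (the SD bar of Snrpf in hTau.P301S is clipped at 0) and hTau.P301S replicate 1 circled. Snrnp70 lies at 50.1 to 110.1 CPM in hTau.P301S and at 111 to 119.9 CPM in hTau.P301S + NR mice, and Snrpb is at 32.8 to 49 CPM in the latter.

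The largest log2 fold changes of the other classes mostly belonged to genes that were high in replicate 1. Lsm7 had 1.57 ± 0.81 and then -0.16 ± 0.22 without that mouse. Lsm10, a protein gene of the U7 snRNP that processes histone mRNA, went from 0.82 ± 0.51 to 0.0029, Sf3b5 from 1.48 ± 0.75 to -0.043 ± 0.22, and U2af1, whose protein reads the end of the intron, from 0.54 ± 0.40 to -0.082 ± 0.15. Snrnp40 of U5 went from 0.46 ± 0.32 to 0.032 ± 0.15, Snrnp27 of the tri-snRNP from 0.69 ± 0.45 to -0.034 ± 0.19, Snrnp25 of U11/U12 from 0.84 ± 0.66 to -0.40 ± 0.25 and Snrpert from 0.53 ± 0.88 to -0.76 ± 0.69. Prpf38b, at -0.60 ± 0.29 and then -0.42 ± 0.22, kept its sign. In 2 of 61 genes the groups did not overlap, against 6.31% of all genes. These were Sf3a3 and Cwc25, both higher in the transgenic mice and named after their values were seen.

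NR was compared next in hTau.P301S mice. The same 4 untreated mice enter this comparison and the previous one, so replicate 1 bears on both with opposite sign. None of the 61 genes was called, against 0.00570% of all genes. DESeq2 on the same mice again called none. None was higher and 10 were lower at an unadjusted p under 0.05, against 6.03% and 7.00% of all genes. Of the 10, 7 were ring genes (Snrpb, Snrpd2, Snrpd3, Snrpg, Lsm4, Lsm7 and Lsm8) and the rest were Snrpc, Sf3b5 and Snrnp40. All 16 ring genes had values below 0, with a median log2 fold change of -1.10 against -0.019 over all genes. After removal of the length trend 15 of 16 did, with a median of -0.71. Of the genes specific to U1, U2 and U5, 16 of 18 then did, with a median of -0.23. Without replicate 1, and with no trend removed, 10 of the 16 ring genes had values below 0 and their median was -0.25. The genes specific to U1, U2 and U5 had values below 0 in 12 of 18 with all mice (median -0.20) and in 14 of 18 without replicate 1 (median -0.076). There were then 1 higher and 8 lower genes at an unadjusted p under 0.05, beside 10.4% and 7.20% of all genes, and none was called, beside 0.162%. In 5 of the 61 genes the groups did not overlap, against 11.8% of all genes.

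Snrpb, which encodes SmB, was at 145, 72.9, 78.7 and 54.2 CPM in untreated and at 40.9, 49, 32.8 and 45.7 CPM in NR-treated transgenic mice. Every treated mouse was below every untreated one. The log2 fold change was -1.06 ± 0.30 (unadjusted p = 0.00695, adjusted p = 0.369 in edgeR) and -0.69 ± 0.17 without replicate 1 (adjusted p = 0.105). Snrpd3, another protein gene of the Sm ring, was at 140.2, 71.6, 75.6 and 73.1 CPM against 49.7, 56.3, 56.9 and 48.1 CPM, again with no overlap. Its log2 fold change was -0.78 ± 0.25, and -0.47 ± 0.10 without replicate 1, with adjusted p-values of 0.369 and 0.0785 in edgeR. DESeq2 over all 4 groups called both genes, with adjusted p-values of 0.0196 for Snrpb and 0.0459 for Snrpd3, where edgeR over all 4 groups gave 0.166 for each. Exons of Snrpd3 overlap Gucd1 on the other strand.

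The other Sm genes lay nearer 0, or on its other side, without replicate 1. Snrpd2 had a log2 fold change of -2.30 ± 0.94 with it and -0.24 ± 0.28 without it, and Snrpg -1.97 ± 0.79 and -0.35 ± 0.22. Snrpf went from -1.72 ± 0.86 to 0.097 ± 0.29, Snrpe from -1.51 ± 0.80 to 0.13 ± 0.27 and Snrpd1 from -0.82 ± 0.53 to 0.13 ± 0.15. Snrpn kept its sign, at -0.52 ± 0.25 and -0.28 ± 0.15. In the Lsm ring the largest value was that of Lsm5, -2.34 ± 1.28 and then 0.35 ± 0.75. Lsm8, the subunit that marks the nuclear ring on U6, was at -1.08 ± 0.42 and then -0.47 ± 0.19, and is named after its values were seen.

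Lsm11 and Prpf19 were also named after their values were seen. Lsm11, the partner of Lsm10 in the U7 snRNP, was low in replicate 1, at 20.9 CPM, and was at 49.3, 71.6 and 51.5 CPM in the other untreated transgenic mice, against 34.1, 27.7, 37.3 and 19.7 CPM in the treated ones. Without replicate 1 the groups did not overlap, and the log2 fold change was -0.94 ± 0.21 (adjusted p = 0.0879 in edgeR) in place of -0.70 ± 0.36. WT mice covered a wide range, at 27.3, 14.6, 50.5 and 18.3 CPM. Prpf19, a ubiquitin ligase gene of the catalytic spliceosome, was highest in replicate 1, at 318, 188, 242 and 228 CPM in untreated and at 180.3, 180.2, 181 and 181 CPM in treated transgenic mice. The groups did not overlap, and the log2 fold change was -0.44 ± 0.19, or -0.27 ± 0.11 without replicate 1.

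Snrnp70 was at 111, 119.9, 119 and 114 CPM in NR-treated transgenic mice, each above every untreated one. Its log2 fold change was 0.40 ± 0.24 (unadjusted p = 0.129, adjusted p = 0.407 in edgeR) and 0.22 ± 0.11 without replicate 1. Values for the other genes set out above were 0.44 ± 0.21 for Prpf39, 0.27 ± 0.17 for Snrnp48 and -0.21 ± 0.16 for Sf3b4. The largest values in the remaining classes were -1.07 ± 0.46 for Snrpc, -1.75 ± 0.74 for Sf3b5, -0.93 ± 0.50 for Lsm10, -0.68 ± 0.40 for U2af1 and -0.74 ± 0.32 for Snrnp40. Snrnp27 was at -0.75 ± 0.46, Snrnp25 at -1.40 ± 0.66, Cwc15 at -0.49 ± 0.30 and Snrpert at -1.57 ± 0.75. Without replicate 1 these 9 lay between -0.31 for Snrnp40 and -0.019 for Snrnp27.

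In WT mice NR left none of the 61 genes called or at an unadjusted p under 0.05. The background was low too, with 0.422% of all genes higher and 0.518% lower at that limit, and no gene called at all (0%). Groups overlapped for all 61 genes, and did not for 0.826% of all genes. The Sm genes had log2 fold changes between -0.16 ± 0.16 for Snrpd3 and 0.090 ± 0.15 for Snrpb.

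The interaction of NR with genotype, fitted over 16 mice, asks whether the NR difference was unequal in the 2 genotypes. None of the 61 genes was called, and nor was any other gene (0%), with edgeR or, for the 61, with DESeq2. At an unadjusted p under 0.05, 6 were lower and none higher, against 4.63% and 3.29% of all genes. The 6 were Snrpb at -1.15 ± 0.35, Snrpd2 at -2.20 ± 1.0, Snrpg at -2.0 ± 0.85, Lsm7 at -1.92 ± 0.87, Lsm8 at -1.0 ± 0.46 and Lsm11 at -1.25 ± 0.55 on the log2 scale. Without hTau.P301S replicate 1, Snrpb at -0.78 ± 0.24 and Lsm11 at -1.49 ± 0.48 kept an unadjusted p under 0.05, with an adjusted p of 0.605 for each in edgeR. Snrpd2 was then at -0.15 ± 0.38 and Snrpg at -0.39 ± 0.31, and Lsm7 and Lsm8 did not keep a p under that limit either. The counts became 3 lower, with Sf3b4 at -0.40 ± 0.18 added, and none higher, beside 3.35% and 4.15% of all genes. With 1 mouse left out at a time, Lsm7 ran from -2.24 to -0.19 and Lsm8 from -1.20 to -0.39.

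Genotype was also compared among NR-treated mice. These 8 mice do not include hTau.P301S replicate 1 and share none with the first comparison. None of the 61 genes was called by edgeR or DESeq2, against 0.0513% of all genes in edgeR. At an unadjusted p under 0.05, 1 was higher and 6 were lower, against 2.39% and 3.81% of all genes, and all 7 were ring genes. In 6 of the 61 the groups did not overlap, against 3.77% of all genes. The ring genes had values below 0 in 13 of 16, with a median log2 fold change of -0.25. The genes specific to U1, U2 and U5 did in 6 of 18, with a median of 0.023, beside -0.018 over all genes.

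Snrpf had the largest value among them. It was at 10.4, 7.65, 11 and 9.87 CPM in WT + NR and at 4.57, 6.42, 6.89 and 4.86 CPM in hTau.P301S + NR mice, with no overlap. The log2 fold change was -0.78 ± 0.20, at an unadjusted p of 0.00317 and an adjusted p of 0.752 in edgeR. Snrpb was at 74.5, 52.5, 55.8 and 60.5 CPM against 40.9, 49, 32.8 and 45.7 CPM, again without overlap, at -0.53 ± 0.16. Snrpg, at -0.56 ± 0.20, and Lsm7, at -0.36 ± 0.12, were also free of overlap, while Snrpd2 at -0.68 ± 0.26 and Lsm4 at -0.49 ± 0.15, named after its values were seen, had overlapping groups. The exception in direction was Snrpd1 at 0.38 ± 0.15, with 31.4, 26.7, 32.5 and 23.9 CPM in WT + NR against 37.7, 36.7, 44.7 and 29.7 CPM in the transgenic mice. Snrpd3, Snrpe and Snrpn were at -0.091 ± 0.10, -0.30 ± 0.31 and -0.033 ± 0.13.

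Both comparisons of genotype can be set side by side. With all mice, 3 of 16 ring genes and 13 of 18 genes specific to U1, U2 or U5 had the same direction in both, beside 46.3% of all genes. Without replicate 1 the ring genes numbered 9 of 16, with 8 lower in both and 1 higher, and the others 14 of 18, beside 58.3% of all genes. Snrpf was at -0.92 without replicate 1 and at -0.78 under NR, and Snrpd2 at -0.52 and -0.68. The Sm genes Snrpb, Snrpd3 and Snrpn differed in direction, higher in transgenic mice without replicate 1 and lower under NR. Snrnp70 was at -0.84 and -0.35 ± 0.20, and Prpf39 at -0.74 and -0.015 ± 0.22.

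The mean log2 CPM over the 16 ring genes was 4.46 ± 0.31 for WT, 4.41 ± 0.072 for WT + NR, 4.94 ± 1.20 for hTau.P301S and 4.17 ± 0.18 for hTau.P301S + NR mice (SD, n = 4). Replicate 1 was at 6.71, and the other 3 hTau.P301S mice lay between 4.16 and 4.59. Over the 18 genes specific to U1, U2 or U5 the means were, in the same order, 5.82 ± 0.083, 5.81 ± 0.090, 6.03 ± 0.23 and 5.79 ± 0.057. The ring mean minus the other mean was 0.36 in replicate 1 and lay between -1.82 and -1.03 in the other 15 mice. Taken as the median log2 fold change of the rings minus that of the other set, the difference was 0.69 for the transgene and -0.24 without replicate 1. It was -0.90 for NR in transgenic mice and -0.18 without replicate 1. The other values were -0.041 for NR in WT mice, -0.27 for genotype among NR-treated mice and -0.94 for the interaction, or -0.096 without replicate 1.

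**Figure D5:**
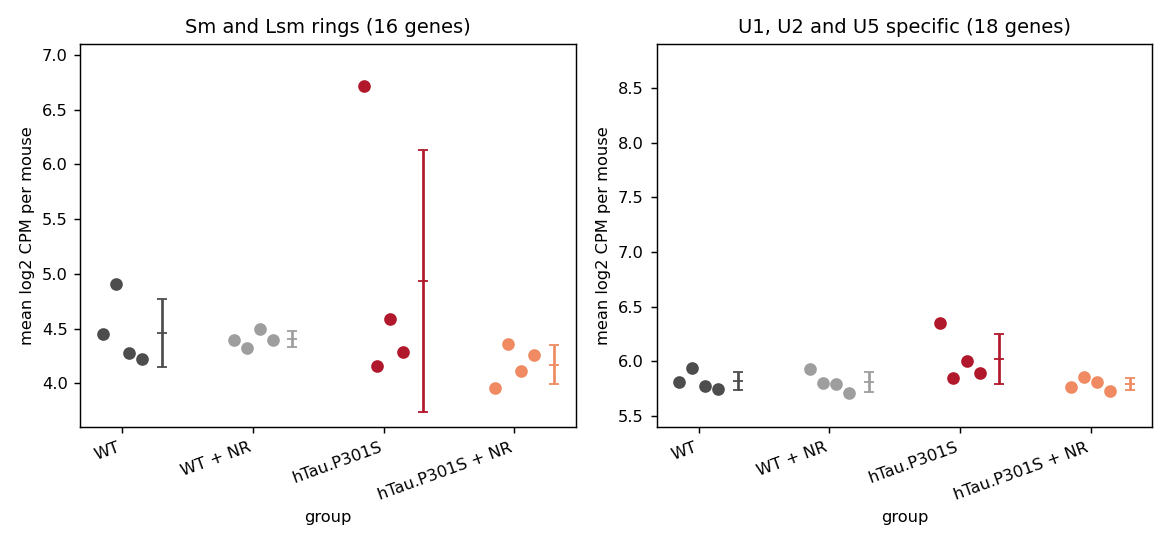
Mean log2 CPM per mouse over the 16 Sm and Lsm ring genes (left) and the 18 genes specific to U1, U2 or U5 (right), by group, with the group mean and SD beside the points and axes of equal span. In the left panel hTau.P301S replicate 1 lies at 6.71, above the other 15 mice at 3.95 to 4.90.

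Other spliceosome proteins (46 genes) and snRNP assembly factors (16 genes) were listed apart. For the transgene, 2 of the 46 were higher and none lower at an unadjusted p under 0.05, namely Eftud2, the GTPase gene of U5, at 0.41 ± 0.18 and Cdc5l at 0.37 ± 0.16, where 3.42% and 4.37% of all genes were. For NR in transgenic mice none was higher and 3 were lower, which were Eftud2 at -0.42 ± 0.17, Xab2 at -0.61 ± 0.23 and Tssc4 at -0.82 ± 0.33, beside 6.03% and 7.00% of all genes. Without replicate 1 there were 5 higher and 1 lower for the transgene, and 1 higher and 4 lower for NR, against the backgrounds without that mouse of 5.17%, 6.65%, 10.4% and 7.20% in the same order. Eftud2 was then at 0.27 for the transgene and -0.27 for NR, Cdc5l at 0.36 for the transgene, and Xab2 and Tssc4 at -0.33 and -0.40 for NR. Of the 16 assembly factors, Wdr77 of the methylosome that modifies Sm proteins was higher with the transgene, at 0.39 ± 0.16 and at 0.28 without replicate 1, and none passed that limit for NR in transgenic mice. Median log2 fold changes for the transgene were 0.18 for the spliceosome proteins and 0.23 for the assembly factors, and 0.069 and 0.052 without replicate 1. For NR in transgenic mice they were -0.19 and -0.30, then -0.065 and -0.080. No gene of either list was called in the 5 comparisons.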

How the data were processed

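Hippocampal RNA of 16 mice in 4 groups of 4 was used, 1 library per mouse. The authors trimmed reads with Trim Galore, aligned them to mm10 with STAR and deposited whole-number counts per gene from RSEM, without normalization, beside a gene length whose definition is not given. The paper gives a younger age than the labels and, in 1 of 2 places, a shorter treatment. Genes were filtered over the 4 groups with filterByExpr. Pairs of groups were fitted on their 8 mice and the interaction on 16 by edgeR 4.0.16 (R 4.3.3) with TMM factors, the quasi-likelihood test and Benjamini-Hochberg adjustment over all genes tested. Calls used an adjusted p under 0.05 with a log2 fold change beyond 0.5 either way, or for the interaction the adjusted p alone. CPM used TMM factors over 16 mice, and log2 CPM a prior count of 2. Standard errors were derived from the fold change and its test statistic. Exon overlaps came from GENCODE on GRCm38. The p-values come from tests of group differences against the spread between these mice.

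The genes and lists were chosen with earlier results of these data known. Named genes were the Sm genes, the largest fold change of each class for the transgene and for NR in transgenic mice, and up to 10 per comparison at an unadjusted p under 0.05 whose groups did not overlap (for the interaction, the p alone). Genes outside this rule were named after their values were seen. Alternatives included DESeq2 1.42.0, other filters and scalings, removal of a length trend, a replicate block and leaving out each mouse. Scripts were tested on simulated counts.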

Additional observations from a re-analysis of the deposited data

Results flagged for a closer look

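In groups of 4 mice, a single mouse lay far from the other 3 by Dixon's criterion in 22 of 104 groups examined, 19 of them in hTau.P301S replicate 1. Chance flags about 1 in 20 groups, but that is no reference here, since most of the genes examined were named for differences to which that mouse contributes, and the 19 share 1 library. In that mouse the Sm genes so marked were Snrpd1 (159.8 CPM), Snrpd2 (506 CPM), Snrpd3 (140.2 CPM), Snrpe (107 CPM), Snrpf (59.1 CPM) and Snrpg (124 CPM). The Lsm genes were Lsm5 (20.3 CPM), Lsm7 (213 CPM), Lsm8 (68.4 CPM) and Lsm10 (25 CPM). The others were Snrpc (97.7 CPM), Sf3b5 (314 CPM), U2af1 (94.7 CPM), Snrnp40 (49 CPM), Snrnp27 (83.7 CPM), Snrnp25 (67.1 CPM), Cwc15 (115 CPM) and Snrpert (13.3 CPM). The mean log2 CPM of the Sm and Lsm rings was marked too, at 6.71 against 4.16 to 4.59 in its group.

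Outside that mouse, Snrpd3 was low in WT + NR replicate 4 (49.7 CPM against 57.6 to 58.8), Lsm10 was high in WT replicate 2 (8.12 CPM against 5.48 to 5.64) and Snrpert was high in WT replicate 1 (8.44 CPM against 1.12 to 2.11).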

How the results depend on the processing

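In the alternatives run, genes of the set were called only by DESeq2 over all 4 groups, which called 1 gene for the transgene and 2 for NR in transgenic mice. That fit was not run without hTau.P301S replicate 1. Genes at an unadjusted p under 0.05 numbered 4 for the transgene, and 21 with edgeR over all 4 groups, 18 with DESeq2 over all 4 groups and 7 with no filter. For NR in transgenic mice they numbered 10, then 22 and 18 in the fits over all 4 groups, and for genotype under NR 7, then 1 and 0. No pairing of mice by replicate number is given in the sources used here. Correlations of deviations between mice of the same number ran from -0.54 to 0.29, which does not settle whether they were paired. With the replicate number as a block the counts were 2, 2 and, for the interaction, 3 in place of 4, 10 and 6, Snrpf was at -0.15 for the transgene and Snrpd1 at 0.023 for NR in WT mice. Removal of the length trend turned Snrpf (-0.056) and Snrpert (-0.41) for the transgene, Prpf39 (-0.043) for NR in transgenic mice, Snrpd1 (0.054) and Snrpf (0.016) for NR in WT mice, and Snrpn (0.022) for genotype under NR. The cause was not tested.

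Leaving out each mouse in turn gave 1 to 13 genes at an unadjusted p under 0.05 for the transgene (2 and 1 without WT replicates 3 and 4, 7, 13, 2 and 7 without hTau.P301S replicates 1 to 4), 2 to 20 for NR in transgenic mice (20 without hTau.P301S replicate 2, and 2 or 3 without any 1 of the hTau.P301S + NR mice), 0 to 1 for NR in WT mice (1 without WT replicate 1 or 3) and 1 to 19 for the interaction (3, 19, 12 and 17 without hTau.P301S replicates 1 to 4, 10, 2 and 1 without WT replicates 2 to 4, and 2 or 3 without replicate 1 or 3 of either NR group). The class difference ran from -0.24 to 0.95 for the transgene, from -1.21 to -0.18 for NR in transgenic mice and from -1.14 to -0.096 for the interaction. Log2 fold changes for the transgene ran from -0.52 to 1.82 for Snrpd2, -0.37 to 1.67 for Snrpe, -0.92 to 1.20 for Snrpf, -0.16 to 1.71 for Snrpg, -0.16 to 1.85 for Lsm7, -0.043 to 1.75 for Sf3b5, -0.082 to 0.68 for U2af1, -0.034 to 0.87 for Snrnp27, -0.40 to 1.08 for Snrnp25 and -0.76 to 1.52 for Snrpert. For NR in transgenic mice they ran from -1.03 to 0.13 for Snrpd1, -1.82 to 0.13 for Snrpe, -2.04 to 0.097 for Snrpf and -2.91 to 0.35 for Lsm5. For NR in WT mice they ran from -0.036 to 0.16 for Snrpb, -0.15 to 0.20 for Snrpd1, -0.20 to 0.096 for Snrpd2, -0.25 to 0.51 for Snrpe, -0.18 to 0.22 for Snrpf and -0.061 to 0.18 for Snrpg. For genotype under NR they ran from -0.49 to 0.016 for Snrpe and -0.13 to 0.018 for Snrpn, and for the interaction from -1.03 to 0.14 for Snrpd1, -2.01 to 0.074 for Snrpe and -2.0 to 0.15 for Snrpf.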
